A study of Mus musculus with 120 samples.

Results

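Gene expression of neurons in 2 thalamic nuclei, RE and AM, was compared after labelling from the same cortical target. The libraries were chosen by their titles, as those of RE or AM cells labelled with the tracer DiI from cingulate cortex, which gave 8 RE and 4 AM libraries of the 120 in the series. In atlas usage RE is the nucleus reuniens of the ventral midline and AM the anteromedial nucleus of the anterior group. All 12 libraries came from wildtype mice and none pooled cells of several animals. DiI is a lipophilic dye that travels back along axons, so each library holds neurons whose axons reached the injection site, picked by hand from a microdissected and dissociated nucleus (31 to 168 cells in RE, 30 to 103 in AM). RE replicates 1 to 4 and AM replicates 1 to 4 came from the same 4 females, the same replicate number marking the same animal, with recorded ages of 69 to 72 (the unit is not given in the metadata) and 1 Ovation amplification date. RE replicates 5 to 8 came from 3 males and 1 female with recorded ages of 55 to 114 and were amplified on another date, for which there is no AM library labelled with DiI. Beside them stand 3 IAD libraries labelled with DiI from the same cortex (the interanterodorsal nucleus, from 2 of the males and the female that gave RE replicates 5 to 7, amplified on yet another date) and 1 AM library labelled from that cortex with a retrograde AAV carrying tdTom, from a female with a recorded age of 77. The IAD and AAV libraries were also of wildtype mice.

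The nucleus reuniens connects the medial prefrontal cortex with the hippocampus, and the anteromedial nucleus belongs to the anterior thalamic group that relays between the mammillary bodies, the cingulate cortex and the hippocampal formation. Both send glutamatergic axons to cortex. Projection neurons of the thalamus generally release glutamate loaded by the vesicular transporter Slc17a6, fire bursts through T-type calcium channels and receive tonic inhibition through extrasynaptic GABA-A receptors.

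Total counts were 14040459 to 26444831 per RE library and 15510302 to 19640166 per AM library, and the number of genes detected, the share of reads counted and the share of ribosomal RNA gave adjusted p of 0.883 (exact two-sided permutation test of each mean, adjusted over 11 library values). In a principal component analysis of the 500 most variable genes, the first component (40.9% of the variance) placed every RE library between 17.6 and 40.2 and every AM library between -63.8 and -46.2. The second component (13.5%) set replicate 3 of both nuclei apart, at -55.2 in RE and -36.7 in AM against -2.46 to 14.99 in the others. These were also the 2 libraries with the fewest cells, 31 and 30. Counts of calls are therefore given with and without them. Of the 72 named genes that were called, 24 lost their call without both libraries. These genes are named with their results or in the last paragraph. By edgeR none of the 11 measured oligodendrocyte markers was called (4 at an unadjusted p under 0.05) and neither of the 2 microglial markers (0 at an unadjusted p under 0.05). DESeq2 called the oligodendrocyte genes Mag (adjusted p = 2.38e-05) and Ermn (7.58e-06) higher in RE, both counted in RE replicate 8 alone (4.53 and 5.48 CPM), and neither microglial marker. The summed oligodendrocyte markers were at 386 CPM in RE replicate 8 and at most 51.5 in the other 11 libraries. Of the inhibitory neuron markers Pvalb and Sst are given here; neither was called by edgeR (1 at an unadjusted p under 0.05) or DESeq2. Sst, the peptide somatostatin, was at 28.6 CPM in RE replicate 3, at most 2.61 in the other RE libraries and at most 0.0498 in AM. Pvalb was at 0 in every RE library, and the part of inhibitory cells in the differences below was not tested. Astrocyte, vascular, habenular and hypothalamic markers were not analysed here.

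Of 16527 genes tested, 304 passed an adjusted p of 0.05 (1.84%), with 101 higher in RE (0.611%) and 203 higher in AM (1.23%). Of the genes higher in RE 60 of the 101 changed more than 4-fold, and the median absolute log2 fold change was 2.85. In AM 99 of 203 changed more than 4-fold, with a median of 1.93. The mean of the lower nucleus was under 1 CPM for 38 of the 101 and 47 of the 203, and it had no count at all for 4 and 20. The RE and AM libraries did not overlap at 230 of the 304 genes, 83 higher in RE and 147 higher in AM, against 650 genes (3.93%) among all tested, 324 higher in RE (1.96%) and 326 in AM (1.97%). The median log2 fold change over all genes was 0.05, so the comparison was nearly centred. AM replicate 3 carried part of the count: without it 187 genes passed (1.13%), with 62 higher in RE (0.375%) and 125 higher in AM (0.756%). Without replicate 3 of both nuclei 151 passed (0.914%), with 49 higher in RE (0.296%) and 102 in AM (0.617%). Of the original calls 48 of 101 and 99 of 203 remained called without both libraries, while 101 and 200 kept their direction. In libraries of picked cells a lower count cannot be told apart from fewer cells that express the gene. Y-linked genes made up 4 of the calls higher in RE, where 3 libraries came from males and AM had none.

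**Figure D1:**
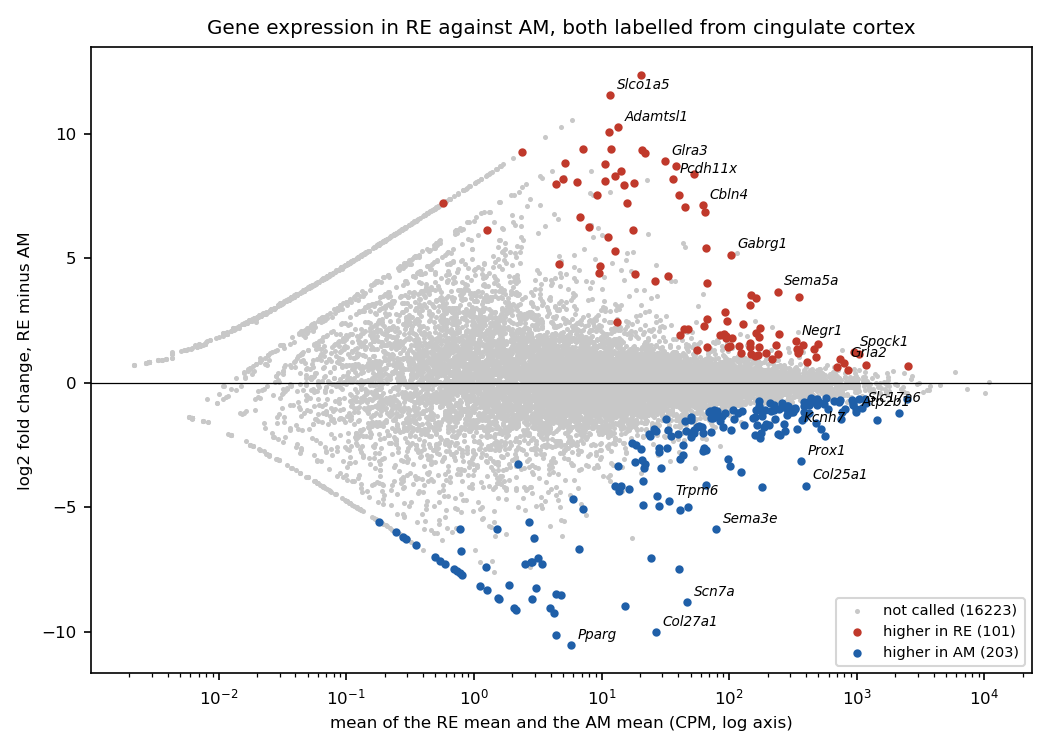
Each point is a gene: the x axis is the mean of the RE and AM means in CPM on a log axis, the y axis the fitted log2 fold change (RE minus AM), with 101 genes called higher in RE in red, 203 called higher in AM in blue and the rest grey. Slc17a6 and Gria2, called genes of high level, lie within about 1 unit of 0. Prox1 and Col25a1, at AM means of 660 and 755 CPM, lie further from it. The called genes farthest from 0 lie at low to middle levels.

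The genes given with this comparison as its markers, chosen with these data known, were Slco1a5 and Adamtsl1 for RE and Col27a1 for AM. Slco1a5, an organic anion transporter at chr6:142234227-142322981 (mm10), ranged over the RE libraries from 5.73 to 93.6 CPM with a median of 12.5. No read of it was counted in any of the 4 AM libraries, the 3 IAD libraries or the AAV-labelled AM library. The RE mean of 23.4 ± 28.9 CPM was at least 572-fold higher than 3 counts over the AM group allow (log2 fold change 11.56, adjusted p = 0.0329). RE replicate 3 held the highest value, 93.6, and the call was lost without that library (log2 fold change 10.75) or without any 1 AM library (adjusted p of 0.0683 to 0.115), without replicate 3 of both nuclei (0.206) and with DESeq2 (0.981). Of its family 10 genes were measured and no other was called; close copies of such a cluster can share reads. Adamtsl1, a secreted matrix protein related to the ADAMTS proteases (chr4:85514172-86428385), was at 16.8 to 46.8 CPM with a median of 25.0 in RE. In AM it was at 0, 0.0600, 0 and 0 CPM, a single read in all (log2 fold change 10.27, adjusted p = 0.00634, and 0.0535 without replicate 3 of both nuclei). The ratio of the means was 1795, with a counting interval of 354 to 77804. Col27a1, a fibrillar collagen chain (chr4:63214004-63334991), was at 88.3, 66.1, 9.97 and 50.4 CPM in AM and at 0 to 0.137 CPM with a median of 0.0174 in RE (log2 fold change -10.01, adjusted p = 3.34e-07). So 2 of the markers separate every library in 1 direction and Col27a1 separates them in the other.

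Among the 12 genes with the largest increases in RE were a receptor for thyrotropin-releasing hormone and the enzyme that degrades it outside the cell. Trhr, the receptor, was at 3.07 to 79.9 CPM with a median of 37.0 in RE and at 0, 0.120, 0 and 0.0996 CPM in AM (log2 fold change 9.36, adjusted p = 0.0274). Trhde, the ectoenzyme, was at 8.28 to 32.1 CPM with a median of 22.6 in RE and at 0.0471, 0.180, 0 and 0.0498 CPM in AM (log2 fold change 8.12, adjusted p = 0.00575). The lowest RE library was above the highest AM library for both, and within RE the libraries of the shared animals held more Trhr (40.8 to 79.9 CPM) than the other 4 (3.07 to 33.2). Glra3, the alpha-3 subunit of the glycine receptor, was at 26.5 to 144 CPM with a median of 53.0 in RE. In AM it was at 0.189, 0.0600, 0.197 and 0.0498 CPM, so that the means differed 506-fold (log2 fold change 8.90, adjusted p = 3.15e-05). P2ry1, a receptor for ADP, had 8.97 to 51.1 CPM with a median of 18.7 in RE and 0, 0.0600, 0.131 and 0.0996 CPM in AM (log2 fold change 8.32, adjusted p = 0.00853). Atp2b4, a calcium pump of the plasma membrane, was at 35.8 to 206 CPM with a median of 105 in RE against 0.189, 0.660, 0.262 and 0.149 CPM in AM (log2 fold change 8.37, adjusted p = 0.00679). Each of these receptors and the pump was close to absent in AM, where no library exceeded 0.660 CPM. Lpl, lipoprotein lipase, was at 39.2 to 146 CPM with a median of 69.0 in RE and 0.330, 0.120, 0.197 and 0.0498 CPM in AM (log2 fold change 8.70, adjusted p = 0.00963). Lypd6, a membrane-anchored protein of the Ly6 family, was at 27.9 to 88.8 CPM with a median of 39.8 in RE and 0.141, 0.0600, 0 and 0.0498 CPM in AM (log2 fold change 9.22, adjusted p = 0.00344). Pcdh11x, an X-linked protocadherin, was at 25.6 to 171 CPM with a median of 64.9 in RE and 0.141, 0.120, 0.262 and 0.448 CPM in AM (log2 fold change 8.17, adjusted p = 1.2e-09), the smallest adjusted p of these 12. Ankfn1 (log2 fold change 10.08, adjusted p = 0.0279) and the cyclin Ccnd2 (log2 fold change 8.84, adjusted p = 0.016) had 1 read each over the 4 AM libraries and means of 22.7 ± 14.2 and 10.4 ± 7.73 CPM in RE. With 4 AM libraries the calls of low genes were not all firm. Leaving out 1 library raised the adjusted p to 0.0638 to 0.127 for Ankfn1 (any AM replicate), 0.0524 to 0.12 for Trhr (any AM replicate, RE 2 or RE 3), 0.0754 to 0.0823 for Ccnd2 (AM 1, 2 or 4), 0.0519 to 0.0568 for Lpl (AM 2, 3 or 4) and 0.0515 for P2ry1 (AM 1). With DESeq2 Trhr had 0.986. Without replicate 3 of both nuclei Ankfn1 had 0.142, Trhr 0.206, Lpl 0.0684, P2ry1 0.0531, Atp2b4 0.0535 and Trhde 0.0544. Glra3, Lypd6 and Pcdh11x kept their calls under each of these. Since a few AM reads set the lower side, leaving out 1 AM library raised the fitted log2 fold change of Adamtsl1 to 11.75 (AM 2), of Ankfn1 to 11.50 (AM 4), of Lypd6 to 9.90 (AM 1), of Ccnd2 to 10.38 (AM 3), of Atp2b4 to 8.998 (AM 2) and of Trhde to 8.98 (AM 2).

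The 12 largest increases in AM had log2 fold changes of -10.54 to -4.53, against 8.12 to 11.56 for those in RE. Pparg, a nuclear receptor that binds fatty acids, was not counted in any of the 8 RE libraries and was at 4.01, 5.58, 33.4 and 3.19 CPM in AM. Its AM mean was at least 601-fold above what 3 counts over the RE group allow (log2 fold change -10.54, adjusted p = 1.19e-05), AM replicate 3 being by far the highest; without that library the fitted log2 fold change was -9.10 (adjusted p = 0.000195). Scn7a, an atypical sodium channel that responds to the sodium level, was at 89.0, 73.7, 139 and 73.6 CPM in AM and at 0 to 1.08 CPM with a median of 0.0229 in RE (log2 fold change -8.82, adjusted p = 3.63e-06). Trpm6, a magnesium-permeable channel with a kinase domain, was at 92.0, 68.6, 49.6 and 49.7 CPM in AM and 0 to 5.27 CPM with a median of 2.002 in RE (log2 fold change -4.76, adjusted p = 7.52e-07). Both channels were lower in every RE library than in any AM library. Sema3e, a secreted semaphorin, was at 187, 117, 181 and 140.1 CPM in AM and 0.592 to 7.59 CPM with a median of 1.21 in RE (log2 fold change -5.88, adjusted p = 3.64e-06). Calca, the gene of calcitonin and of the peptide CGRP, was at 69.2, 47.0, 146 and 107 CPM in AM and 0 to 5.94 CPM with a median of 3.10 in RE (log2 fold change -5.00, adjusted p = 0.0317). Cdk6, a kinase partner of D-type cyclins such as Ccnd2, was at 22.2, 33.8, 135 and 25.8 CPM in AM and 0 to 9.53 CPM with a median of 0.104 in RE (log2 fold change -4.96, adjusted p = 0.00925). The cyclin and its partner kinase thus differed in opposite directions. Cyyr1 (log2 fold change -8.98, adjusted p = 9.89e-07), the kelch protein Klhl14 (log2 fold change -7.48, adjusted p = 0.00287) and the ribonuclease Endou (log2 fold change -4.53, adjusted p = 2.47e-05) had AM means of 30.8 ± 11.8, 80.3 ± 13.3 and 51.8 ± 17.4 CPM and RE medians of 0, 0 and 0.763. Single RE libraries carried most of what little was counted there: without RE replicate 5 Cyyr1 had a log2 fold change of -11.96, without replicate 7 Klhl14 had -11.84 and without replicate 8 Scn7a had -10.35. The glycosyltransferase Galnt14 was at 12.1, 23.1, 3.93 and 16.5 CPM in AM and 0 to 1.75 CPM with a median of 0.0269 in RE (log2 fold change -5.06, adjusted p = 3.15e-05), the replicate block ended its call (0.152), and without RE replicate 1 its log2 fold change was -5.90. Calca lost its call without AM replicate 3 or 4 or any 1 of RE replicates 1, 2, 3, 5, 6 and 8 (adjusted p of 0.0502 to 0.104), and Cdk6 without AM replicate 3 (0.113, log2 fold change -3.97; -6.42 without RE replicate 6).

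**Figure D2:**
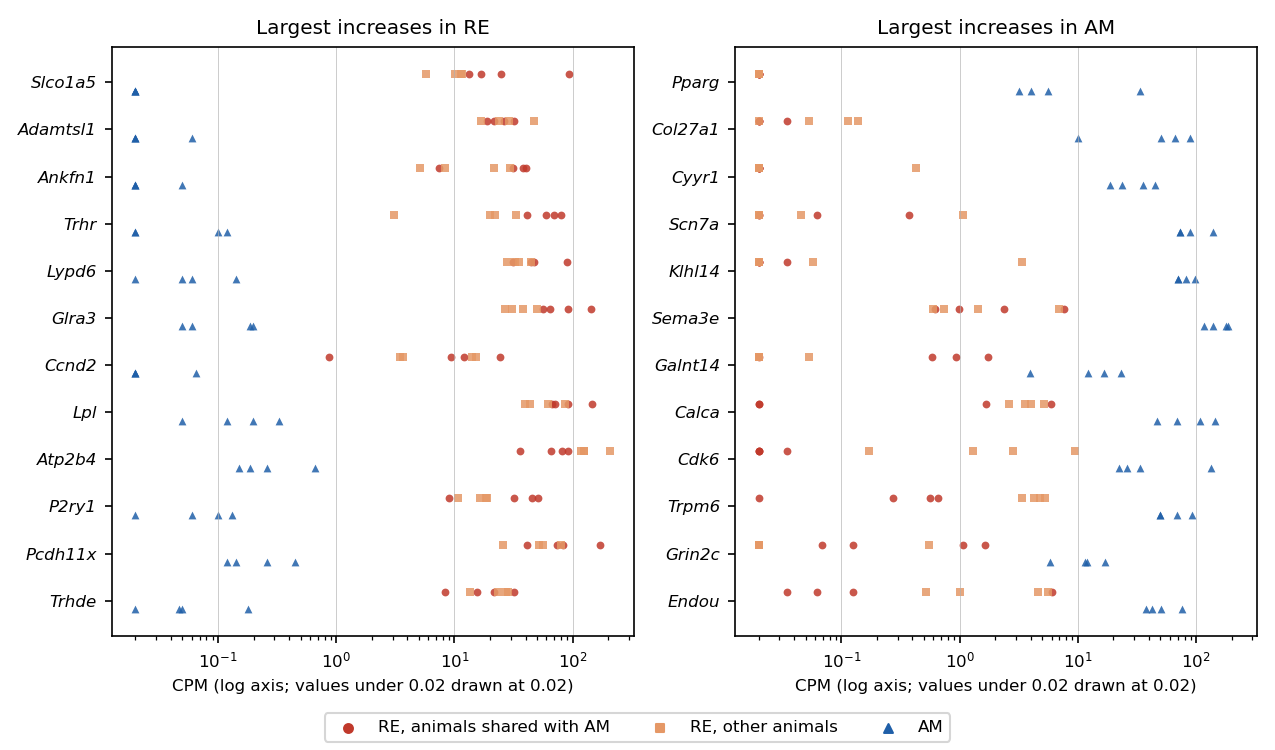
Values per library in CPM on a log axis for the 12 genes with the largest increases in RE (left) and in AM (right), with circles for RE libraries of the 4 animals shared with AM, squares for RE libraries of the other animals and triangles for AM; values under 0.02 are drawn at 0.02. For each gene the triangles lie apart from all circles and squares, and for Slco1a5 all AM libraries, and for Pparg all RE libraries, are at 0.

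The gene lists below stand beside all tested genes. Of these 0.611% were called higher in RE and 1.23% higher in AM, with a median log2 fold change of 0.05. All 5 called genes of the 13-gene thalamic relay identity list were lower in RE, and the median log2 fold change of the list was -0.90. Prox1, a homeobox transcription factor, had the smallest adjusted p of these: it was at 700.3, 649.6, 731 and 558 CPM in AM and 23.0 to 169 CPM with a median of 62.3 in RE (log2 fold change -3.15, adjusted p = 2.17e-21). Slc17a6, the vesicular glutamate transporter VGLUT2, was at 1598, 1189, 1738 and 1331 CPM in AM and 518 to 868 CPM with a median of 759 in RE (log2 fold change -1.03, adjusted p = 1.14e-05). Every AM library was above every RE library for both, and RE had the lowest mean of the 22 nuclei for both. The zinc finger gene Zic1 was at 942, 908, 1489 and 921 CPM in AM and 358 to 666 CPM with a median of 448 in RE (log2 fold change -1.19, adjusted p = 2.71e-05). It overlaps Zic4 in the annotation, and without strand their reads cannot be told apart where they do. The nuclear receptor Rora was at 1064, 1038, 1612 and 1128 CPM in AM and 472 to 828 CPM with a median of 638 in RE (log2 fold change -0.90, adjusted p = 0.00154, and 0.064 without AM replicate 3). Lef1, a transcription factor of Wnt signalling, was at 98.7, 164, 238 and 145 CPM in AM and 35.5 to 90.2 CPM with a median of 58.5 in RE (log2 fold change -1.45, adjusted p = 0.000158). The other 8 members did not pass in this fit. The broad thalamic factor Tcf7l2 had 1450.3 ± 194 CPM in RE and 1983 ± 391 in AM (log2 fold change -0.45, adjusted p = 0.271). Gbx2 had 51.6 ± 14.4 and 27.5 ± 12.002 CPM (log2 fold change 0.91, adjusted p = 0.921), Lhx2 21.7 ± 10.2 and 81.5 ± 36.0 (log2 fold change -1.91, adjusted p = 0.269), and Lhx9 96.1 ± 42.3 and 137 ± 94.98 (log2 fold change -0.51, adjusted p = 0.849). Foxp2 had 153 ± 62.6 and 84.9 ± 21.0 CPM (log2 fold change 0.85, adjusted p = 0.487) and Zic4 57.9 ± 25.4 and 137 ± 36.1 (log2 fold change -1.24, adjusted p = 0.557). The calcium-binding protein calbindin (Calb1) was at 387 ± 63.1 CPM in RE and 215 ± 81.6 in AM (log2 fold change 0.85, adjusted p = 0.61). Calretinin (Calb2) was at 192 to 347 CPM with a median of 271 in RE and 78.1, 90.2, 14.4 and 11.7 CPM in AM; its ranges did not overlap, its adjusted p was 0.196, and with the replicate block it was 0.0129. Over the 29 alternatives Calb2 was called in 6, Lhx2 in 4 and Zic4 and Calb1 in 2 each. Fitting the 12 libraries alone called all 4 of them (0.00217, 0.00303, 0.0123 and 0.0148).

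Further transcription factors were called as well. Of 16 measured homeobox and patterning genes 3 were called, all lower in RE: Prox1 and Zic1, counted above, and the chromatin organiser Satb1 (log2 fold change -2.64, adjusted p = 0.000396). Of 29 other developmental factors 4 were lower and 1 higher in RE, and 3 were called with the replicate block. Foxp1, a forkhead repressor, was at 799, 708, 1043 and 717 CPM in AM and 94.9 to 335 CPM with a median of 222 in RE (log2 fold change -1.88, adjusted p = 8.45e-05). Rorb, a second ROR receptor, had log2 fold change -1.17, adjusted p = 0.00568. Bcl11a, a zinc finger factor, was the 1 higher in RE (log2 fold change 4.75, adjusted p = 0.0115). Of 29 Wnt, BMP, FGF and growth factor genes the receptor Igf1r alone was called (2 with the replicate block), at 432, 375, 520.5 and 363 CPM in AM and 149.6 to 244 CPM with a median of 201 in RE (log2 fold change -1.07, adjusted p = 0.00831, and 0.0851 without AM replicate 3).

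Because Rora, Rorb and Lef1 were lower in RE, the RefSeq promoters (GRCm38.p6, the 250 bases before the gene start) were searched on both strands for AGGTCA, the half-site bound by ROR and other nuclear receptors, and CTTTGA, the core bound by LEF and TCF factors. Promoters of 3 called genes that hold a match are printed 5′ to 3′ on the gene's strand, with the match in capitals on whichever strand it lies: 2 semaphorins that differed in opposite directions, and an NMDA receptor subunit.
Sema5a, higher in RE, chr15:32244563-32244812, plus strand: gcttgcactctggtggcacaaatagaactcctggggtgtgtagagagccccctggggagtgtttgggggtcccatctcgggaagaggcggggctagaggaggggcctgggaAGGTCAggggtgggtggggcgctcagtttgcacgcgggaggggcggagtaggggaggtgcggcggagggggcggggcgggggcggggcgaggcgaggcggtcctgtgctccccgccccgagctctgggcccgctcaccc
Sema3e, higher in AM, chr5:14025026-14025275, plus strand: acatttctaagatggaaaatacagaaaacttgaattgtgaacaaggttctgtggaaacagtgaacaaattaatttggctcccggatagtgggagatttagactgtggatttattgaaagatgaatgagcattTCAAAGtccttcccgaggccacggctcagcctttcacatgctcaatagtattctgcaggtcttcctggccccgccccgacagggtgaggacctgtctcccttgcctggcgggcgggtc
Grin2c, higher in AM, chr11:115267244-115267493, minus strand: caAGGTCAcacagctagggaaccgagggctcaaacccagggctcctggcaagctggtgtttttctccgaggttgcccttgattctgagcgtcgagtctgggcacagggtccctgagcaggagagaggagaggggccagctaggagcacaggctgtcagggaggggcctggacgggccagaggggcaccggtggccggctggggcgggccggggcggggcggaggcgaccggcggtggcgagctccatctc
AGGTCA was found in the promoters of Sema5a and Grin2c and CTTTGA, as its reverse complement, in that of Sema3e. AGGTCA was present in 4 of 76 promoters of genes called higher in RE (5.26%), 13 of 139 of genes called higher in AM (9.35%) and 10.2% of 9563 promoters of tested genes. CTTTGA was present in 8 of 76 (10.5%), 11 of 139 (7.91%) and 10.7%. These shares are descriptions, and in neither group of called genes was the share above that of the tested genes.

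Voltage-gated potassium channel genes that were called were all lower in RE, 5 of 36 measured, with a list median of -0.38. Over all tested genes 66.8% of the calls were higher in AM, and the median was 0.05. Kcnh7, a channel of the ERG family, was at 431, 467, 661 and 567 CPM in AM and 52.6 to 199 CPM with a median of 144 in RE (log2 fold change -1.84, adjusted p = 1.06e-09). Kcnd2, the A-type channel Kv4.2, was at 305, 285, 498 and 255 CPM in AM and 92.4 to 158 CPM with a median of 118 in RE (log2 fold change -1.47, adjusted p = 1.06e-07). Its relative Kcnd3 (log2 fold change -1.08, adjusted p = 0.0148), the Kv4 partner Kcnip3 (log2 fold change -1.90, adjusted p = 0.0425) and the fast channel Kcnc2 (log2 fold change -0.78, adjusted p = 0.00712) were lower too. Of 23 other potassium channel genes 1 was called in each direction. Kcnj2, the inward rectifier Kir2.1, was near absent in AM, at 0, 0.240, 0.0656 and 1.39 CPM, and at 41.6 to 151 CPM with a median of 78.6 in RE (log2 fold change 7.53, adjusted p = 0.0242). Kcnma1, the large-conductance calcium-activated channel, was at 516, 439, 656 and 522 CPM in AM and 246 to 391 CPM with a median of 283 in RE (log2 fold change -0.82, adjusted p = 0.0164). Kcnj2 lost its call without AM replicate 1, 2 or 3 (adjusted p of 0.1 to 0.123), had a log2 fold change of 9.55 without AM replicate 4, and Kcnma1 lost its call without AM replicate 3 (0.165). Among 18 sodium, HCN and leak channel genes the HCN auxiliary protein Pex5l was called, at 73.8, 76.6, 66.6 and 73.5 CPM in AM and 18.7 to 44.7 CPM with a median of 24.9 in RE (log2 fold change -1.39, adjusted p = 0.00238), and the replicate block ended that call (0.082).

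Calcium channels and pumps differed in both directions. Of 20 calcium channel genes the auxiliary subunit Cacna2d2 was higher in RE, at 90.8 to 253 CPM with a median of 137 against 40.3, 77.0, 65.9 and 33.0 CPM in AM (log2 fold change 1.46, adjusted p = 0.0392). Lower in RE were the L-type Cacna1c (log2 fold change -0.79, adjusted p = 0.0107), the auxiliary subunit Cacnb4 (log2 fold change -0.79, adjusted p = 0.00984) and Cacna1g, the T-type channel Cav3.1 (log2 fold change -1.61, adjusted p = 1.77e-05). The call of Cacna1g rested on 1 library: AM was at 298, 333, 1997 and 277 CPM and RE at 207 to 299 CPM with a median of 230.5, the ranges overlapped, and without AM replicate 3 the log2 fold change was -0.34 with an adjusted p of 1. Cacnb4 lost its call without AM replicate 3 (0.102) and with the replicate block (0.075), and Cacna2d2 without any 1 of AM 1, AM 3, AM 4, RE 1, RE 3, RE 7 and RE 8 (0.0512 to 0.22). Of 26 calcium-binding and pump genes 2 were called in each direction, and 9 in all with the replicate block. The calcium pumps Atp2b4 and Atp2b1 went opposite ways: Atp2b1 was at 1215, 1147, 1689.8 and 1398 CPM in AM and 497 to 689 CPM with a median of 596 in RE (log2 fold change -1.19, adjusted p = 3.74e-09), while Atp2b4, given above, was close to absent in AM. Slc24a3, a potassium-dependent sodium-calcium exchanger, was at 536 to 930.1 CPM with a median of 741 in RE and 184, 218, 419 and 178 CPM in AM (log2 fold change 1.57, adjusted p = 0.00113). Efhd2, an EF-hand protein, was at 331, 256, 356 and 234 CPM in AM and 20.3 to 153 CPM with a median of 97.1 in RE (log2 fold change -1.66, adjusted p = 0.0249), and lost its call without AM 1, AM 3, RE 1 or RE 2 (0.0648 to 0.113).

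Receptor subunits of the main transmitters were called in both directions. Among 23 genes of glutamate receptors RE had more of 3 and less of 2. Gria2, the AMPA receptor subunit that limits calcium entry, was at 893 to 1373 CPM with a median of 935 in RE and 591, 539, 629 and 569 CPM in AM (log2 fold change 0.79, adjusted p = 0.00218). Its mean was the highest of the 22 nuclei, and every RE library was above every AM library. Grm8, a metabotropic receptor that lowers release from presynaptic terminals, was at 15.5 to 41.0 CPM with a median of 21.3 in RE and 0.566, 1.08, 0 and 0.846 CPM in AM (log2 fold change 5.30, adjusted p = 0.00861, and 0.0696 without AM replicate 3). The kainate receptor Grik2 (log2 fold change 0.95, adjusted p = 0.0493) was higher too. Lower in RE was Grin2c, the NMDA receptor subunit whose promoter is printed above, at 17.1, 11.9, 5.77 and 11.6 CPM in AM and 0 to 1.63 CPM with a median of 0.0968 in RE (log2 fold change -4.69, adjusted p = 4.65e-05, and 0.171 with the replicate block; log2 fold change -5.48 without RE replicate 4). Gria4 was at 276, 277, 424 and 339.8 CPM in AM and 145 to 280.4 CPM with a median of 175 in RE, with ranges that overlapped (log2 fold change -0.81, adjusted p = 0.0257). Its call was lost without AM 3, AM 4 or RE 2 (0.0524 to 0.267) and with the block (0.0683).

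Of 19 GABA and glycine receptor genes 2 were called higher and 3 lower in RE. Gabrg1, the gamma-1 subunit, was at 140.1 to 235 CPM with a median of 210.0 in RE and 7.92, 9.59, 0.393 and 4.88 CPM in AM, a 35.6-fold difference of the means (log2 fold change 5.15, adjusted p = 0.000158). The glycine receptor subunit Glra3, given above, was the other one higher in RE. Gabra4 and Gabrd, which form extrasynaptic receptors together, were both lower in RE. Gabra4 was at 515, 489, 841 and 524 CPM in AM and 175 to 328 CPM with a median of 249 in RE (log2 fold change -1.23, adjusted p = 2.21e-07). Gabrd was at 24.5, 40.6, 56.5 and 35.8 CPM in AM and 0.621 to 6.62 CPM with a median of 3.87 in RE (log2 fold change -3.44, adjusted p = 3.99e-05), the lowest mean of the 22 nuclei. Gabrb2 was lower as well (log2 fold change -0.77, adjusted p = 0.0119). Of 21 monoamine and acetylcholine receptor genes 2 were called, both lower in RE. The adrenergic receptor Adra1b was at 74.2, 75.5, 79.2 and 80.1 CPM in AM, within a narrow range, and at 0.966 to 23.1 CPM with a median of 7.90 in RE (log2 fold change -2.89, adjusted p = 6.28e-06). The nicotinic subunit Chrna4 was at 537, 553, 652 and 454 CPM in AM and 149 to 446 CPM with a median of 286 in RE (log2 fold change -0.91, adjusted p = 0.0204), and lost its call without AM 2, AM 3 or RE 1 (0.0531 to 0.141). Of 22 peptide, opioid and cannabinoid receptor genes Trhr alone was called, and 3 were with the replicate block.

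Secreted organisers of synapses included a pair of C1q-family genes in opposite directions. Cbln4, a cerebellin that binds neurexins, was at 51.0 to 188 CPM with a median of 123 in RE and 0.0943, 2.58, 0.262 and 0.597 CPM in AM (log2 fold change 7.14, adjusted p = 0.00037). C1ql3 was at 132, 116, 123 and 127 CPM in AM and 2.48 to 15.3 CPM with a median of 6.05 in RE (log2 fold change -4.12, adjusted p = 0.000485). RE libraries had at most 15.3 CPM of C1ql3 and AM libraries at most 2.58 CPM of Cbln4, a value of replicate 2 without which the log2 fold change of Cbln4 was 8.57. Of the 23 genes of that list Calca and Nrn1 were lower in RE too; Nrn1, a neurite growth factor, was at 233, 248, 169 and 209.8 CPM in AM and 90.8 to 170.1 CPM with a median of 132 in RE (log2 fold change -0.73, adjusted p = 0.02). Its ranges overlapped and the call was lost without AM 1 or 2 (0.0704 to 0.1), with total count scaling (0.0522) and with the block (0.363).

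Cell adhesion genes were called in both directions. Of 48 synaptic adhesion genes outside the cadherins 5 were higher and 3 lower in RE, with a list median of 0.31. Negr1, a neuronal growth regulator of the immunoglobulin family, was at 388 to 622 CPM with a median of 518 in RE and 128, 173, 206 and 123 CPM in AM (log2 fold change 1.68, adjusted p = 0.000171). Lrrtm4, a postsynaptic leucine-rich repeat protein, was at 26.8 to 79.7 CPM with a median of 47.4 in RE and 9.80, 0.600, 0.918 and 0.0996 CPM in AM (log2 fold change 4.11, adjusted p = 0.00079), the highest AM value being replicate 1; without it the log2 fold change was 6.51. Alcam (log2 fold change 3.52, adjusted p = 0.0257), Lrrc4c (log2 fold change 2.02, adjusted p = 0.00438) and Flrt3 (log2 fold change 1.94, adjusted p = 0.0408) were higher in RE as well. Cntnap2, a neurexin-like protein that gathers potassium channels, was at 476, 408, 795 and 508 CPM in AM and 154 to 256 CPM with a median of 179.9 in RE (log2 fold change -1.51, adjusted p = 2.21e-07). Cntn4, a contactin, was at 98.9, 94.0, 129 and 94.2 CPM in AM and 2.97 to 81.4 CPM with a median of 36.8 in RE (log2 fold change -1.41, adjusted p = 0.00159), and Cntn6 had log2 fold change -1.500, adjusted p = 0.0314. The call of Cntn4 was lost with the block (0.0729) and when the 12 libraries were fitted alone (0.112). Of 23 cadherins and protocadherins, beside Pcdh11x, Cdh12 was lower in RE, at 84.0, 107, 158 and 84.3 CPM in AM and 24.0 to 65.9 CPM with a median of 38.6 in RE (log2 fold change -1.40, adjusted p = 0.0164, and 0.194 without AM replicate 3). Cdh13 was called lower too, but AM was at 32.7, 35.4, 214 and 61.8 CPM, the ranges overlapped, and without replicate 3 the log2 fold change was -0.77 and the adjusted p 0.958.

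Axon guidance and matrix genes gave some of the strongest calls. Of 46 guidance genes 4 were higher and 5 lower in RE. Sema5a, a membrane semaphorin, was at 134 to 1208 CPM with a median of 362 in RE and 29.3, 36.1, 49.2 and 26.5 CPM in AM (log2 fold change 3.66, adjusted p = 2e-12), RE replicate 3 being the highest. Sema6a, another membrane semaphorin, was at 178 to 418 CPM with a median of 256 in RE and 85.1, 86.5, 81.6 and 46.8 CPM in AM (log2 fold change 1.84, adjusted p = 0.000616). Epha5 (log2 fold change 1.497, adjusted p = 0.0106) and Robo2 (log2 fold change 1.89, adjusted p = 0.0329), receptors of ephrins and Slits, were also higher. Epha7, an ephrin receptor, was at 237, 257, 381 and 263 CPM in AM and 19.4 to 144 CPM with a median of 42.8 in RE (log2 fold change -2.21, adjusted p = 9.41e-07). Sema3e, Sema7a (log2 fold change -2.67, adjusted p = 0.0252), Epha8 (log2 fold change -2.52, adjusted p = 0.0431) and the netrin receptor Unc5b (log2 fold change -4.28, adjusted p = 0.0344) were lower in RE. So both the semaphorins and the ephrin receptors had members on each side. Of 32 matrix genes 4 were called in each direction. Col25a1, a transmembrane collagen, was at 742, 691, 944 and 642 CPM in AM and 22.5 to 65.6 CPM with a median of 41.8 in RE, 17.6-fold lower (log2 fold change -4.14, adjusted p = 8.1e-13). Spock1 and Spock3, testican proteoglycans, were both higher in RE. Spock1 was at 1118 to 1504 CPM with a median of 1336 in RE and 440.3, 532, 711 and 582 CPM in AM (log2 fold change 1.23, adjusted p = 1.37e-06). Spock3 was at 345 to 669 CPM with a median of 531 in RE and 194, 169, 237 and 234 CPM in AM (log2 fold change 1.27, adjusted p = 0.000339). Beside Adamtsl1, Spon1 was the fourth matrix gene higher in RE (log2 fold change 3.45, adjusted p = 0.000833), and beside Col27a1 and Col25a1, Tnc (log2 fold change -5.58, adjusted p = 0.00217) and Nell2 (log2 fold change -0.96, adjusted p = 0.000156) were lower.

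Genes of vesicle release and G protein signalling were called in both directions too. Of 34 release genes Sv2c, a synaptic vesicle glycoprotein, was higher in RE, at 48.0 to 169 CPM with a median of 81.5 against 1.84, 0.180, 0.0656 and 0.498 CPM in AM (log2 fold change 7.07, adjusted p = 0.00814, and 0.0521 and 0.0645 without AM replicate 2 or 3; log2 fold change 8.40 without AM replicate 1). Cplx1, a complexin that clamps the fusion machinery, was at 268, 341, 338 and 308 CPM in AM and 42.1 to 116 CPM with a median of 99.7 in RE (log2 fold change -1.71, adjusted p = 3.26e-06). Syt7, a slow calcium sensor, was at 591, 724, 679 and 539 CPM in AM and 275 to 437 CPM with a median of 339.9 in RE (log2 fold change -0.89, adjusted p = 0.00166), and the active zone gene Rims1 was lower as well (log2 fold change -0.72, adjusted p = 0.0319). Of 35 G protein signal regulators 3 were called in each direction, and 11 in all with the replicate block. Plcb1, phospholipase C beta, was at 164 to 254 CPM with a median of 211 in RE and 46.4, 33.8, 46.7 and 39.2 CPM in AM (log2 fold change 2.36, adjusted p = 0.00465). Rgs4, which shortens G protein signals, was at 519 to 903 CPM with a median of 641 in RE and 238, 315, 235 and 239 CPM in AM (log2 fold change 1.37, adjusted p = 0.000614). Rasgrf1 was also higher (log2 fold change 0.53, adjusted p = 0.0465). Rasgrp1, an activator of Ras, was at 1111, 1203, 1731 and 1276 CPM in AM and 466.3 to 954 CPM with a median of 623 in RE (log2 fold change -1.07, adjusted p = 1.27e-05). Adcy1, a calcium-stimulated adenylyl cyclase, was at 231, 256, 281 and 267 CPM in AM and 86.5 to 148 CPM with a median of 125 in RE (log2 fold change -1.10, adjusted p = 0.00215), and Rgs3 was lower too (log2 fold change -1.75, adjusted p = 0.00356). None of 74 oxidative phosphorylation genes, 13 immediate early genes or 12 cytoskeletal genes of large axons was called by edgeR (0, 0 and 5 at an unadjusted p under 0.05) or DESeq2. The newer quasi-likelihood method called 1 of the cytoskeletal genes. The lists had medians of -0.16, -0.60 and -0.26. Over all lists 86 of 653 measured genes were called. The lists were drawn up for neuronal genes with earlier results known, so this share says nothing of its own.

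**Figure D3:**
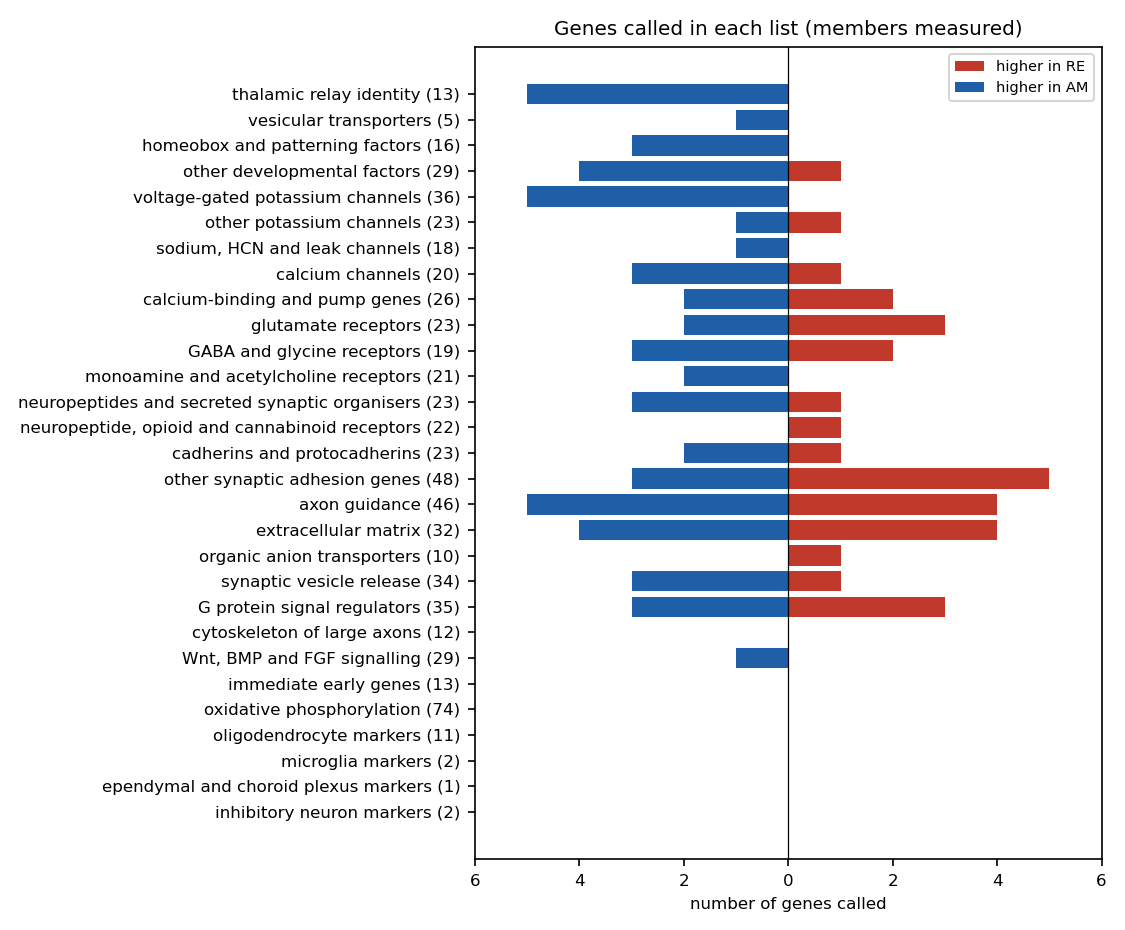
Each row is a list with the number of its measured genes in brackets; bars to the right count genes called higher in RE and bars to the left genes called higher in AM. The identity list and the voltage-gated potassium channels had 5 calls each on the AM side and none on the RE side, while GABA and glycine receptors had 2 on the RE side and 3 on the AM side.

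Within the 4 animals that gave both nuclei, the direction held in every animal for 87 of the 101 genes called higher in RE. It also held for 192 of the 203 called higher in AM. The libraries of these animals were part of the comparison that made the calls, so this was largely built in. Prox1 was lower in RE than in AM of the same animal by log2 differences of -4.98 to -2.85 (mean -3.62 ± 1.00, SD, n = 4). Col25a1 differed by -4.86 to -3.82, Slc17a6 by -1.75 to -0.76 and Kcnh7 by -3.65 to -1.48. Gabrg1 was higher in RE by 4.57 to 8.74 and Sema5a by 3.64 to 4.61. The replicate number, which here stands for the animal, was also used as a block, in a fit of the 12 libraries alone. This called 330 of 13810 genes (2.39%), with 173 higher in RE (1.25%) and 157 in AM (1.14%). Without the block the 12 libraries alone gave 614 calls (304 and 310). The original 101 and 203 came from the fit of all 120 libraries, so they differ from the block fit in more than the block. Of the original calls 81 and 117 were also called with the block, a fit of the same RE and AM libraries, so this overlap was largely built in too. The 7 named genes other than Galnt14 and Grin2c whose call it ended were Pex5l, Cacna1g, Cacnb4, Gria4, Nrn1, Cdh13 and Cntn4.

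The RE libraries of the 2 amplification dates were compared as well. A test of RE replicates 5 to 8 against 1 to 4 called 8 genes (0.0484%), of which 4 were Y-linked; Gdf11, Shisa6 and Prkcd were among the others. Some named genes it did not call were still apart by date, as Trhr was. Slco1a5 was at 13.3 to 93.6 CPM in RE 1 to 4 and 5.73 to 11.6 in RE 5 to 8. Foxp1 was at 94.9 to 204 and 239 to 335 CPM, and Rgs4 at 519 to 618 and 664 to 903. Such genes were not counted over all tested. For Slco1a5, RE 5 to 8 against AM gave an adjusted p of 0.105 by edgeR. Against AM, RE replicates 1 to 4 alone, on the shared date, gave 217 calls (1.31%), with 65 genes higher in RE (0.393%) and 152 higher in AM (0.92%), of which 63 and 132 were among the original calls. RE replicates 5 to 8 alone gave 141 (0.853%), with 67 (0.405%) and 74 (0.448%), of which 67 and 72 were among them. Both use the AM libraries of the original comparison, and their RE libraries are part of it, so these overlaps were largely built in. Date and animal cannot be told apart for these libraries.

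IAD is the third nucleus labelled from cingulate cortex. For all 28 named genes called higher in RE the IAD mean was nearer to AM than to RE, and so it was for 42 of the 44 named genes called higher in AM (on the log2(CPM + 1) scale). The named genes were chosen by their difference between RE and AM. The same count was not made over all tested genes or for other nuclei. Prox1 was at 755, 686 and 723 CPM in the 3 IAD libraries, Col25a1 at 893, 725 and 802 CPM, and Glra3 was not counted in them. Between IAD and AM no gene passed by edgeR (0 of 16527, smallest adjusted p 0.0676), with 504 genes at an unadjusted p under 0.05; DESeq2 called 261 genes and the newer quasi-likelihood method 5. All 8 RE libraries against IAD gave 219 calls (1.33%). RE replicates 5 to 8 against IAD is a comparison that shares no library with RE replicates 1 to 4 against AM. In 1 fit over all libraries with RE split by date, the first of these called 100 genes (0.605%) and the second 227 (1.37%; the 217 above came from a fit without RE replicates 5 to 8), and 81 genes were called in both in the same direction, 81.0% of the first list and 35.7% of the second. None was called in both in opposite directions. Of these 81 genes 20 were higher and 61 lower in RE, and 38 were among the named genes, such as Glra3, Pcdh11x, Gabrg1, Cbln4, Prox1, Slc17a6, Col25a1 and Kcnh7. The AAV-labelled AM library, a single library of another tracer and date, lay outside the RE range on the side of AM for 27 of 28 and 41 of 44 named genes. The exceptions were Sema6a, at 212 CPM there, Efhd2 (127 CPM), Adra1b (10.7 CPM) and Cdh13 (29.9 CPM). The AAV library reached the AM range or lay beyond it for 16 of the 28 and 39 of the 44. Neither count was set against all tested genes.

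**Figure D4:**
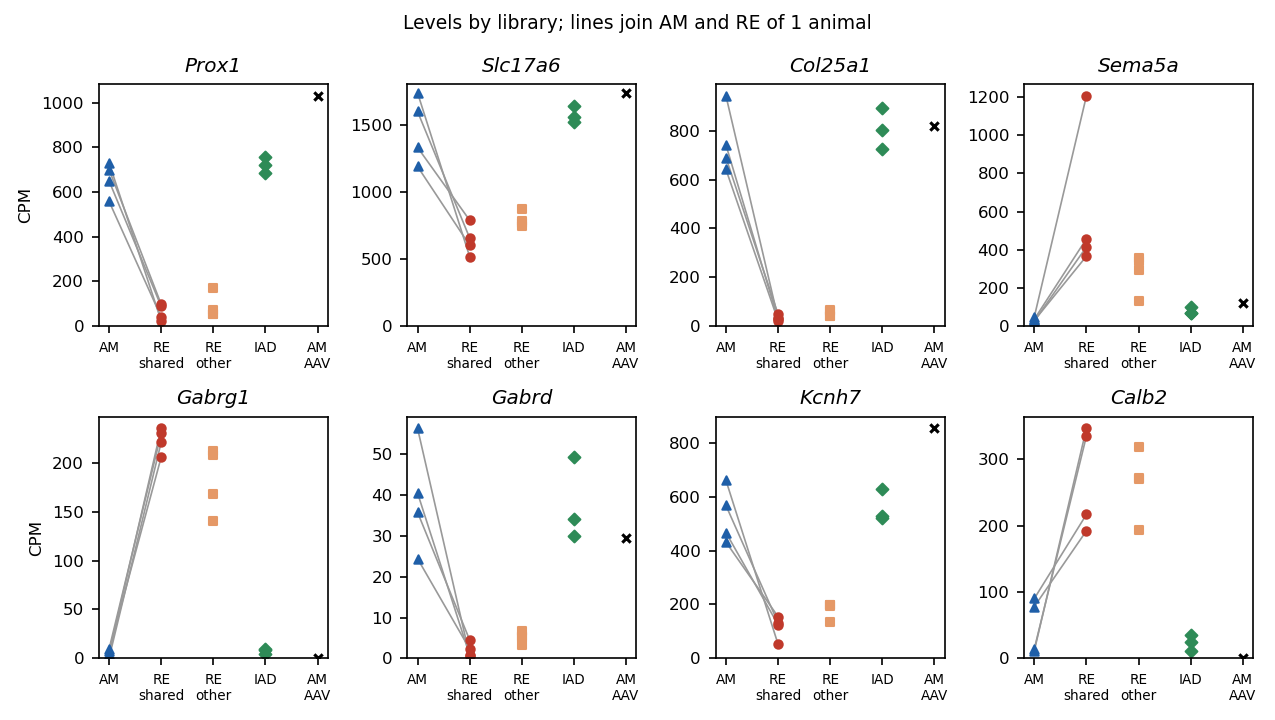
CPM per library for 8 genes in AM, in RE of the animals shared with AM (grey lines join libraries of 1 animal), in RE of the other animals, in IAD and in the AAV-labelled AM library. Prox1, Slc17a6, Col25a1, Gabrd and Kcnh7 fall and Gabrg1, Sema5a and Calb2 rise from AM to RE in each of the 4 animals, and the IAD libraries lie near AM.

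The called genes were also ranked over the 22 nuclei of the series. Of the 101 genes called higher in RE, 28 (27.7%) had their highest mean of 22 nuclei in RE, and 14 (13.9%) their lowest in AM. Of the 203 called higher in AM, 53 (26.1%) had their lowest mean in RE and 25 (12.3%) their highest in AM. Over all tested genes RE was highest for 2.59% and lowest for 1.31%, and AM 2.90% and 1.76%. The calls were made from these same libraries, so a rise in these shares was built in. Among the largest increases in RE, Slco1a5, Ankfn1, Trhr, Lpl and P2ry1 were highest in RE, also without any 1 RE library. Glra3 was highest in RE too, but at 51.0 CPM without RE replicate 3, under LP (59.1). Slco1a5 was next highest in VM, at 0.284 CPM, and Trhr in SPA, at 2.74 CPM, whereas Lypd6 was highest in SPA (168 CPM) and Pcdh11x in CM (117 CPM), with RE at rank 6 and 7. Among the largest increases in AM, Cyyr1 and Calca had their highest mean in AM, also without any 1 AM library. Pparg had it through AM replicate 3: without that library its AM mean was 4.26 CPM, under the PVT mean of 10.8. Col27a1 was far higher in AD (466.3 CPM) than in AM, and Grin2c and Galnt14, both at rank 16 in AM, were lowest in RE. Trpm6, Cdk6, Prox1, Slc17a6, Kcnd2, Gabrd, Adra1b, Cntnap2, Cntn4, Cacnb4 and Syt7 also had their lowest mean in RE. These nuclei were labelled from other targets, in part with another tracer, and their order was not tested.

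**Figure D5:**
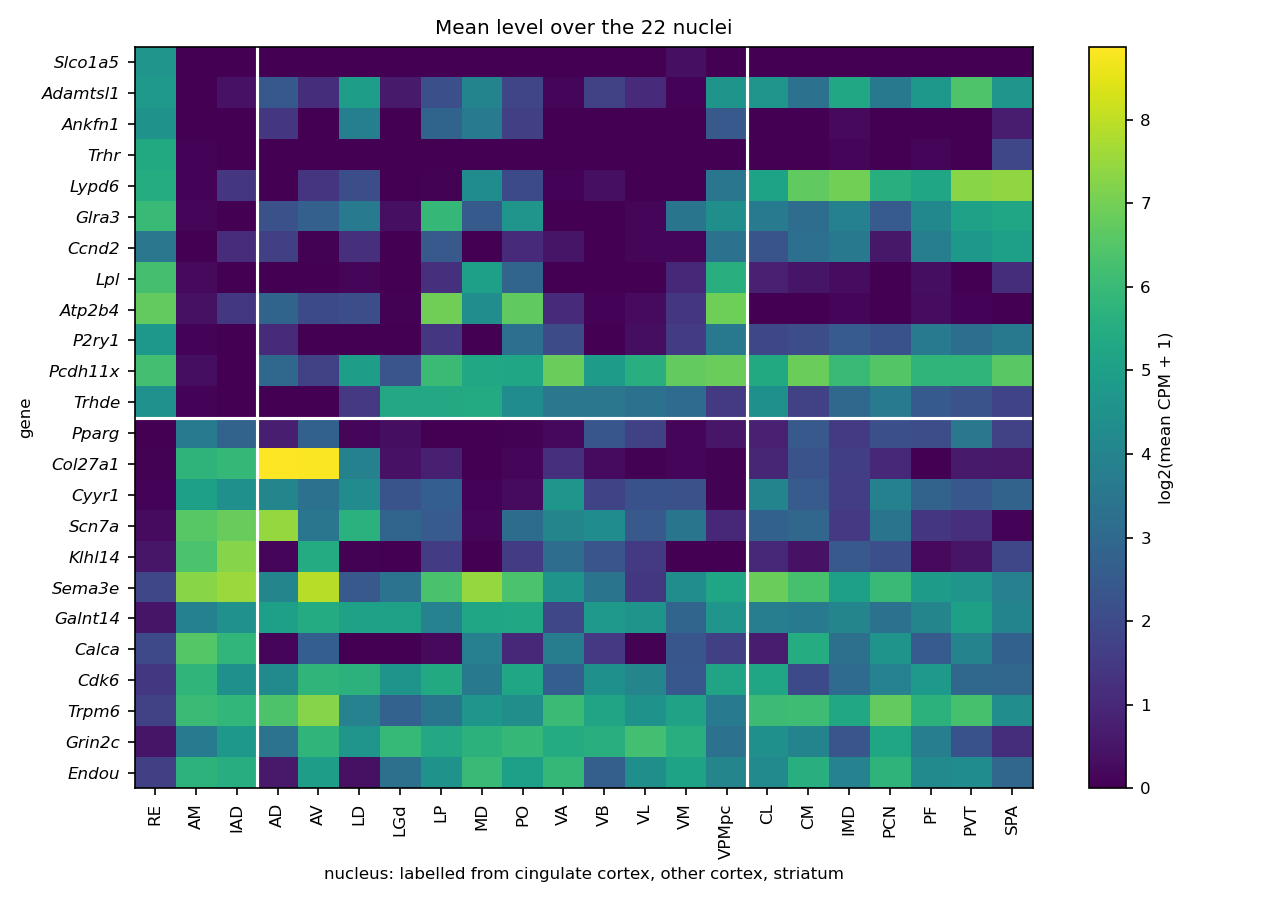
Mean level, as log2(mean CPM + 1), of the 24 genes with the largest increases in RE (above the horizontal line) and in AM (below it) in 22 nuclei; vertical lines separate nuclei labelled from cingulate cortex, from other cortex and from striatum. The RE column is darker than the AM column for every gene below the line, and Slco1a5 and Trhr are bright in RE and dark in nearly all others.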

How the data were processed

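The table deposited by the authors holds raw counts of 16538 genes in 120 libraries, beside a table of animal, tracer, target, sex, amplification date and cell number; the submitters' processing notes name cutadapt 1.16, STAR 2.5.3a, featureCounts 1.52 and mm10, without their settings. Per the labels' protocols, cDNA was amplified with the Ovation kit, which does not keep the strand. Genes with a near-identical copy are uncertain.

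The counts were fitted with edgeR 4.0.16 in R 4.3.3 over all libraries and 24 groups (filterByExpr, minimum count 10; TMM; quasi-likelihood F test of RE minus AM; Benjamini-Hochberg over 16527 genes). CPM values are TMM-scaled and log2 fold changes have no interval; means are ± SD. Libraries of 1 nucleus came from separate animals. No 2 libraries had identical counts (chi-square at least 60.3 times its degrees of freedom). Genes were named by rule: called, 10 CPM or more on average in the higher nucleus and no overlap, the 12 largest changes in each direction; at most 2 called members per list and direction; the markers; and the identity list. Members and lists were chosen with earlier results of these data known, and list members outside this rule were named after their values were seen; some genes are not reported here and were left out of lists and sums. Same-numbered RE and AM libraries come from the same animal per the metadata; their deviations from the group means correlated at -0.0593 to 0.0687 over 13299 genes. Alternatives were DESeq2, other scalings, filters and fits, blocks, date and sex terms, subsets of libraries and leaving out each library. Blocks and terms were fitted on RE and AM libraries alone, without the other nuclei. On simulated counts of RE against AM (16440 genes) the fit recovered 12 of 100 genes changed 2-fold and 51 of 100 changed 4-fold and made 11 false calls, 14.9% of its calls, above the nominal 5%. Gene positions are from GENCODE M21 (mm10), and 62 of 80 named genes had a RefSeq promoter that was used here. Floors and intervals cover counting error only: reads carried no molecular identifiers, a floor is 3 counts over a group and intervals are 95% exact Poisson.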

Additional observations from a re-analysis of the deposited data

Results flagged for a closer look

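Dixon's criterion for single outlying values has a nominal rate of about 1 in 20 for independent normal values. The sets here share libraries and some hold values of 0, so their share was not read against chance. Single libraries that lay far from the others of their nucleus were looked for in 159 sets of values, and 29 sets (18.2%) held one by that criterion. AM replicate 3, a library of 30 cells, was the odd one in 11 of them: it was highest for Pparg (33.4 CPM, the nearest other library at 5.58), Cdk6 (135, nearest 33.8), Zic1 (1489, nearest 942), Cacna1g (1997, nearest 333), Slc24a3 (419, nearest 218), Gabra4 (841, nearest 524), Cdh13 (214, nearest 61.8), Cntn4 (129, nearest 98.9), Lhx9 (279, nearest 96.4), Rora (1612, nearest 1128) and Calb1 (337, nearest 181). RE replicate 3, a library of 31 cells from the same animal, was highest for Slco1a5 (93.6 CPM, nearest 24.8), Lypd6 (88.8, nearest 47.0), Pcdh11x (171, nearest 82.5), Kcnj2 (151, nearest 91.7), Gria2 (1373, nearest 1099), Gria4 (280.4, nearest 205), Sema5a (1208, nearest 458) and the inhibitory neuron markers Pvalb and Sst summed (28.6, nearest 2.61), and lowest for Cplx1 (42.1, nearest 91.8). The part of cell number or of the animal in these values was not tested.

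Other libraries stood out in fewer sets. In AM they were replicate 1 for Lrrtm4 (9.80 CPM, nearest 0.918) and for the ependymal and choroid plexus marker Otx2 (8.20, nearest 0.0498), replicate 2 for Rgs4 (315, nearest 239), and replicate 4 for Sema6a (46.8, nearest 81.6), for the sum of Pvalb and Sst (0.0996, the others at 0) and for the summed microglial markers (4.03, nearest 0.360). In RE they were replicate 6 for Cdk6 (9.53 CPM, nearest 2.84) and for its recorded age (114, nearest 77), and replicate 8 for the summed oligodendrocyte markers (386, nearest 51.5).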

How the results depend on the processing

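Of the 72 named genes that were called, 36 kept their call in each of 29 alternatives and none reversed. The count of calls, 304 (101 higher in RE, 203 in AM), came from the fit of all 120 libraries. It was 617 (245 and 372) with the newer quasi-likelihood method and 553 (313 and 240) with DESeq2. When the 12 libraries were fitted alone it was 614 (304 and 310). Fits with the date, sex or the replicate number also used these 12 alone, so their counts stand beside 614 and not 304. They gave 579 (292 and 287) with the amplification date as a term and 529 (277 and 252) with sex as a term. With the replicate number as a block the count was 330 (173 and 157). The causes were not tested. On the shared date alone, with the other nuclei in the fit, it was 217 (65 and 152). Chosen after seeing the data, RE of the other date against AM gave 141 (67 and 74), with fewer RE libraries, and leaving out replicate 3 of both nuclei 151 (49 and 102). Leaving out 1 library gave 187 to 292 calls (58 to 96 higher in RE and 125 to 200 in AM), the lowest total without AM replicate 3. Size factors, total scaling and low-count filters gave 277 to 306. Of the 72 named calls 22 were lost with RE of the other date, 24 without replicate 3 of both nuclei and 9 with the block. On the shared date alone 10 were lost (Slco1a5, Trhr, Calca, Kcnma1, Cacna2d2, Cacnb4, Gria4, Nrn1, Cdh13 and Igf1r), and with females only 11, Cdk6 in addition. Beside genes given above, the calls lost without replicate 3 of both nuclei were Calca, Cdk6, Kcnj2, Kcnma1, Cacna2d2, Cacna1g, Cacnb4, Efhd2, Grm8, Gria4, Chrna4, Cdh12, Cdh13, Sv2c, Igf1r and Rora. Lhx9, which was not called at a log2 fold change of -0.51, was at 0.13 with the replicate block, 0.12 with the animal as a block, 0.10 without AM replicate 3 and -0.72 without AM replicate 1. The difference in the sum of Pvalb and Sst was 0.363 (without RE replicate 3) to 4.44 CPM, and in ependymal markers 8.83 to 13.5, with 1 library left out. With 4 AM libraries, a change that missed the threshold is not shown to be absent.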
